A study of Mus musculus with 24 samples.

Results

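The Wnt and Fgf ligand genes are 39 genes, 19 of the Wnt family and 20 of the Fgf family, taken as a fixed list of gene symbols from the 21887 protein-coding genes of the RefSeq annotation of mouse assembly GRCm38.p6. Each was described by the peaks of histone H3 lysine 4 monomethylation (H3K4me1) and dimethylation (H3K4me2) at its ends, and all other 21848 protein-coding genes were read in the same way for comparison. The list does not include Fgf4 and Fgf5, so it is not the whole Fgf family. The marks had been profiled by CUT&RUN, in which an antibody-tethered nuclease releases the chromatin fragments that are then sequenced. The cells were mouse embryonic stem (ES) cells and day 6 embryoid bodies (EB), which are aggregates of differentiating ES cells, on a C57BL/6 background. Both stages were available as wild type and as Prdm16 KO, so that the 4 kinds of cell were wild-type ES, KO ES, wild-type EB and KO EB. ES cells were grown with LIF, serum and serum replacement on Matrigel, and EB in medium with serum. The labels do not describe the KO allele or the number of clones.

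Wnt proteins are lipid-modified secreted ligands that bind Frizzled receptors with the co-receptors Lrp5 and Lrp6, and canonical signalling stabilises beta-catenin, which acts with Tcf and Lef factors. Most Fgf proteins are secreted ligands of Fgfr receptor tyrosine kinases that signal largely through Ras and Erk; a subgroup stays inside the cell and binds sodium channels, and another acts as hormones. In early mouse development Wnt and Fgf signals pattern the primitive streak and the neural plate, and Fgf signalling moves ES cells towards differentiation. H3K4me2 is found at promoters and enhancers and H3K4me1 chiefly at enhancers and the flanks of promoters, and either can be present at a gene that is not transcribed.

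The H3K4 data were 16 libraries in 8 groups of 2 (antibody, stage and genotype), and PRDM16 itself had been profiled in 8 more. Nothing in the labels ties the 2 libraries of a group to separate cultures. The p-values therefore rest on library-to-library spread alone, and that spread may be technical. H3K4me2 lists held 22615 to 32874 peaks in ES cells and 13818 to 19246 in EB, and H3K4me1 lists 12746 to 15435 and 5990 to 14082. Read depth is unknown. In H3K4me1 of EB the KO lists were the short ones (8943 and 5990 peaks, against 14082 and 13260 in wild type). The titles place 1 KO ES and 1 wild-type EB library of H3K4me2, replicate 2 in each case, in another library series than the other 14. Of 10 ES cell marker genes, 3 to 5 had an H3K4me2 peak at a gene end in the ES lists and 3 to 7 in the EB lists. Of 10 germ layer markers, 4 to 7 had one in ES lists and 2 to 4 in EB lists, and of 6 fibroblast or feeder markers 5 and 4 to 5. In the stage test over libraries, whose form is given with its results, at an unadjusted exact permutation p of 0.05 that 16.1% of all genes met, Nanog, Pou5f1 and Prdm14 of 9 ES markers tested were higher and Dppa3 and Zfp42 lower in EB. At Pou5f1 the EB coverage lay almost wholly in KO lists. Its H3K4me1 covered 0 and 0 kb in wild-type EB and 4.17 and 4.27 kb in KO EB. Its H3K4me2 covered 0 and 0.128 kb against 4.18 and 4.75 kb. Of the 10 ES markers, Pou5f1 alone had H3K4me1 in both KO and no wild-type EB lists (0.581% of other genes). In the same test, of 10 germ layer markers Mixl1 was higher and Foxa2 lower in EB, and of 5 fibroblast or feeder markers Col1a2 was higher and Prrx1 lower. Genotypes also differed at germ layer markers. In ES cells, H3K4me2 was in both wild-type and no KO lists at Eomes, Gsc and Foxa2 (3 of 10, 1.22% of other genes). H3K4me1 had that pattern at Gsc and Gata4 (2 of 10, 1.79%) and the reverse at Sox17 (1 of 10, 1.3%). The genotype test gave Eomes and Gsc as lower in KO at an unadjusted exact permutation p of 0.05 (3.86% of all genes). Lack of a peak was not read as lack of the mark. The deletion of Prdm16 was not checked with these lists.

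To show the DNA on which the results turn, the 250 bases before the RefSeq start are printed for 7 of the 29 members with an entry in the RefSeq promoter table (GRCm38.p6, which has mm10 coordinates), 5′ to 3′ on the strand of the gene, with every CG dinucleotide in capitals. Wnt1 (chr15:98789607-98789856, plus strand, 23 CG) and Wnt4 (chr4:137277385-137277634, plus strand, 44 CG) are shown because, among EB, KO lists alone had H3K4me2 there. Wnt3a (chr11:59290752-59291001, minus strand, 41 CG) had H3K4me1 over its start in wild-type EB lists alone. Fgf3 (chr7:144838362-144838611, plus strand, 4 CG) had H3K4me1 in the ES lists alone. Wnt2 (chr6:18030446-18030695, minus strand, 20 CG) and Wnt16 (chr6:22287977-22288226, plus strand, 9 CG) had both marks in all 16 lists. Fgf7 (chr2:126034408-126034657, plus strand, 6 CG) had no peak in any of the 16 and was added as a contrast after its values were seen.
Wnt1: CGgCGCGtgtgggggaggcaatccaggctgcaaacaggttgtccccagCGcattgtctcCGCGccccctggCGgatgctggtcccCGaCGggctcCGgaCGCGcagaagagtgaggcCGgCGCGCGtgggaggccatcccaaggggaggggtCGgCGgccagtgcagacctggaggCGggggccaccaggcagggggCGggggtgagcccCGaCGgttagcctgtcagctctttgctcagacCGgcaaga
Wnt4: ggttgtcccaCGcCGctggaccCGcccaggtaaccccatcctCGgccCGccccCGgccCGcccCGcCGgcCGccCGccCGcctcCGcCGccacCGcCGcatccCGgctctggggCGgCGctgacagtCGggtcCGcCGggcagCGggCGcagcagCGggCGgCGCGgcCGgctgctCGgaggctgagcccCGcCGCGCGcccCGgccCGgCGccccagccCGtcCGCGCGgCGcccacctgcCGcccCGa
Wnt3a: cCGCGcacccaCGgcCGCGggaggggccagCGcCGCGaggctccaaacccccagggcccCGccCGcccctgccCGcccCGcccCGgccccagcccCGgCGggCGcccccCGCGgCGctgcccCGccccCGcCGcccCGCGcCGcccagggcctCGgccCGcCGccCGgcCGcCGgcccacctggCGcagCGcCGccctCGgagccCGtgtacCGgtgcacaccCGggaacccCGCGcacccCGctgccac
Fgf3: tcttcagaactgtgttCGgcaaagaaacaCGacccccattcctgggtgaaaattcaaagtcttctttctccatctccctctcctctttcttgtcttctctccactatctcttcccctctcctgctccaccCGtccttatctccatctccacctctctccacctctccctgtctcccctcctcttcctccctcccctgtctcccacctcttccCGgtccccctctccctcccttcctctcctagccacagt
Wnt2: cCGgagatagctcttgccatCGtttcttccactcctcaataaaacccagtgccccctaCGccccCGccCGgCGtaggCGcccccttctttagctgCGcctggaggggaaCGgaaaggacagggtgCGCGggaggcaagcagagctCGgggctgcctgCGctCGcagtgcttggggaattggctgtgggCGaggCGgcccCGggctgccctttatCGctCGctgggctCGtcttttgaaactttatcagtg
Wnt16: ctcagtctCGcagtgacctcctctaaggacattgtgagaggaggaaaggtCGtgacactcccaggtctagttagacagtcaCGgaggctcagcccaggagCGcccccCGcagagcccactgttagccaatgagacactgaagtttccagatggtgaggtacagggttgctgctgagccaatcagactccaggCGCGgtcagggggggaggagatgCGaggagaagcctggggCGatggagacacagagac
Fgf7: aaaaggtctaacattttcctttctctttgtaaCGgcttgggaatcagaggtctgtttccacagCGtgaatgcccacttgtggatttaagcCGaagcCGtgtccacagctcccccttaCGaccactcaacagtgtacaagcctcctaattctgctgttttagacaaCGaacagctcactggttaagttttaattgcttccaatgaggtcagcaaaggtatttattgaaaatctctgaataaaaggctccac

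A gene counted as marked in a list if at least 1 bp of a peak fell within 2500 bp of either gene end. Wnt and Fgf genes were marked by H3K4me1 more often than other genes in each of the 8 libraries. In ES cells the wild-type lists marked 14 and 18 members and the KO lists 20 and 20, which is 35.9 to 51.3% of the 39, against 19.8 to 23.2% of other genes. In EB the wild-type lists marked 13 and 16 and the KO lists 15 and 9, or 23.1 to 41.0% against 7.79 to 17.6%. The ranges of members and of other genes did not overlap at either stage. H3K4me2 marked 30 and 25 members in the wild-type and 26 and 29 in the KO lists of ES cells (64.1 to 76.9%, other genes 54.2 to 58.1%). In the EB lists it marked 18 and 22 (wild type) against 25 and 21 (KO) (46.2 to 64.1%, other genes 51.1 to 55.5%), and there the ranges overlapped. Several members share a neighbourhood and are not independent: Wnt3 and Wnt9b overlap, and Wnt6 and Wnt10a, Wnt1 and Wnt10b, and Wnt3a and Wnt9a lie 6.7, 11.7 and 16.1 kb apart.

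**Figure D1:**
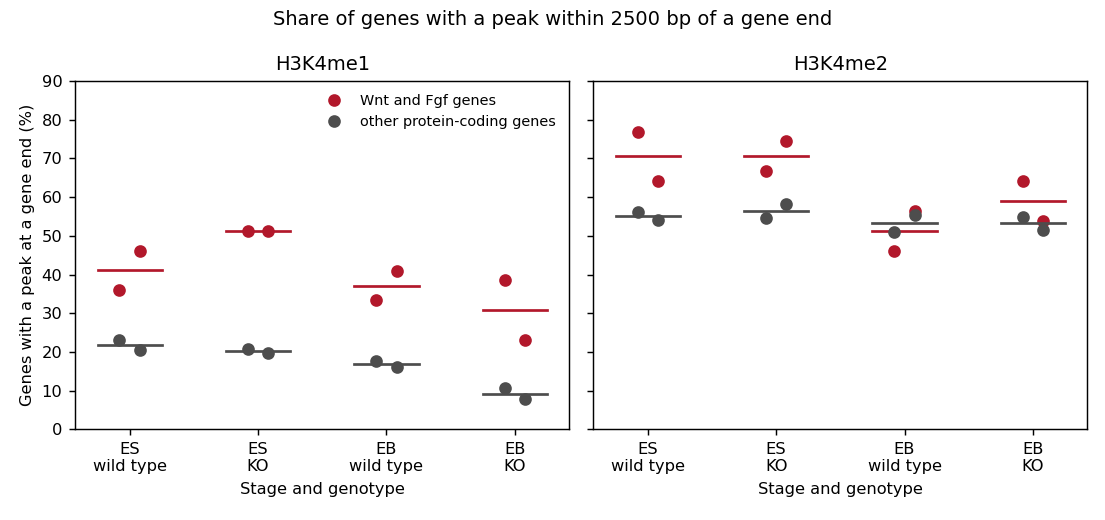
Percentage of the 39 Wnt and Fgf genes (red) and of the 21848 other protein-coding genes (grey) with a peak within 2500 bp of a gene end, for H3K4me1 (left) and H3K4me2 (right) by stage and genotype; points are libraries and lines are means of 2. For H3K4me1 the red points lie above the grey ones throughout, and for H3K4me2 in EB they overlap.

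The members fell into classes by the number of lists that marked them. H3K4me2 was present in all 8 of its lists at 12 members (30.8%, other genes 37.5%), in 1 to 7 lists at 21 (53.8%, other genes 31.6%) and in none at 6 (15.4%, other genes 30.9%). Members were thus less often at either extreme than other genes, a difference given without a test. The 12 were the Wnt genes Wnt2, Wnt3a, Wnt5b, Wnt7a, Wnt9a and Wnt16, and Fgf2 (basic Fgf), Fgf3, Fgf10 (limb and lung budding), Fgf16, Fgf18 (skeletal growth) and Fgf20. The 6 without H3K4me2 at their ends were Wnt10b, Fgf6 (a muscle Fgf), Fgf7 (keratinocyte growth factor), Fgf8, Fgf11 and Fgf13. H3K4me1 was in all 8 lists at Wnt2, Wnt8a and Wnt16 (7.69%, other genes 0.915%) and in none at 9 members (23.1%, other genes 52.0%), which were Wnt5b, Wnt6, Fgf2, Fgf7, Fgf12, Fgf13, Fgf14, Fgf16 and Fgf17.

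Wnt2, which acts in lung specification with Wnt2b, and Wnt16, linked to bone mass, were the members marked in all 16 lists (5.13%, other genes 0.526%). The H3K4me2 peaks at Wnt2 covered 2.5 and 2.8 kb of its windows in wild-type ES, 2.53 and 2.47 kb in KO ES, 2.67 and 2.79 kb in wild-type EB and 2.18 and 2.16 kb in KO EB. At Wnt16 the same values were 2.53 and 2.55, 2.94 and 3.05, 3.39 and 3.99, and 3.08 and 2.71 kb. Both peaks sat over the RefSeq start and ranked near the top of the lists by the authors' score, at percentiles 99.0 to 99.9 for Wnt2 and 96.5 to 99.9 for Wnt16 in H3K4me2. The sequences at these starts printed above differ in CG content. At the other end, Fgf7 and Fgf13 had no peak at a gene end in any list (5.13%, other genes 27.3%). For Fgf13, a long gene of 523 kb, this depended on the window, since H3K4me2 was over its span in all 8 lists. Fgf8, a ligand of gastrulation and of the midbrain and hindbrain boundary, was the only member with no peak of either mark over its span in any list, although H3K4me1 reached its ends in 3 ES lists and 1 KO EB list.

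**Figure D2:**
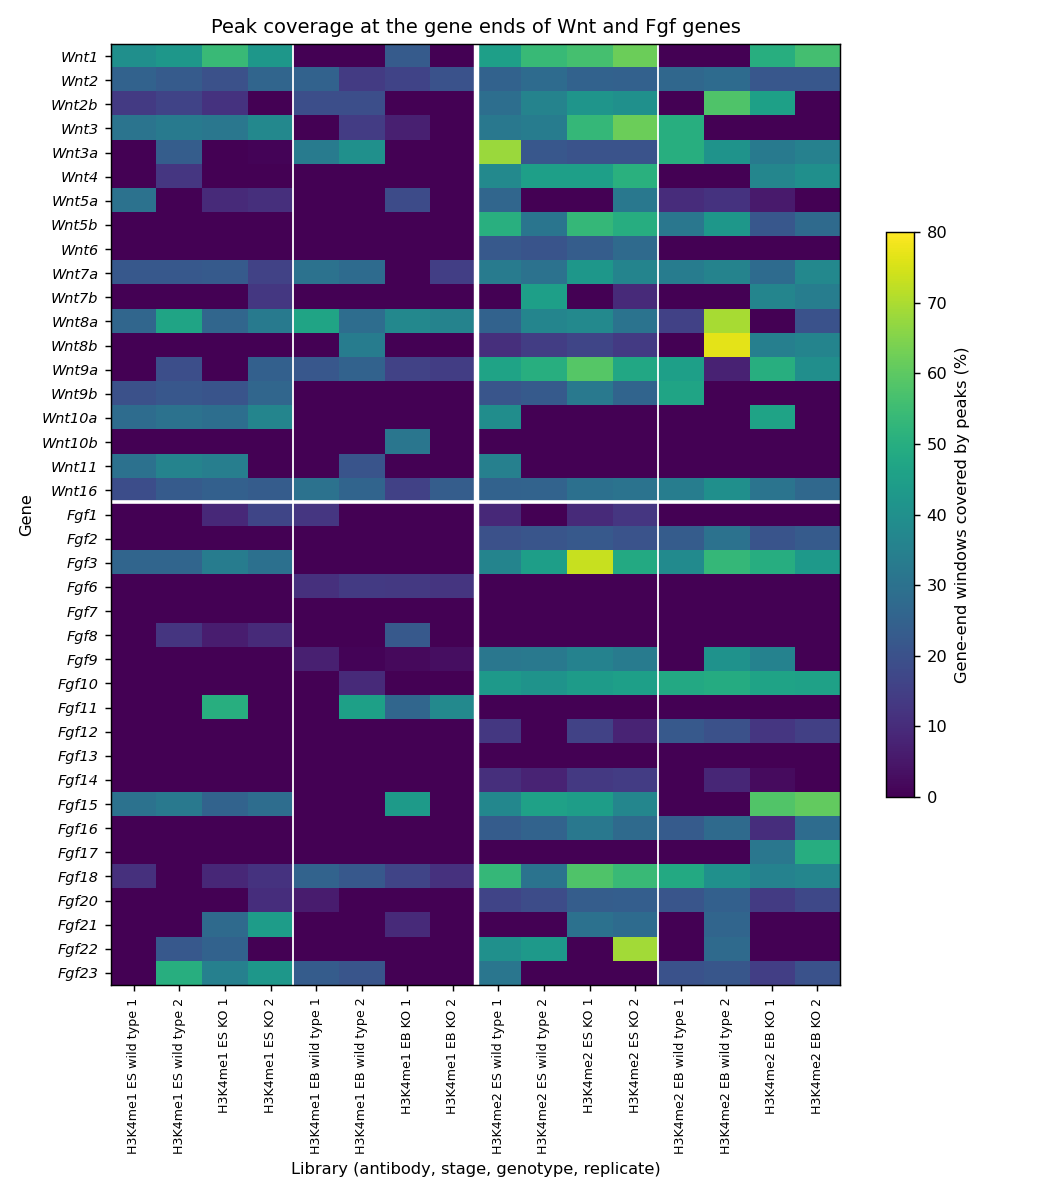
Percentage of the gene-end windows of each Wnt and Fgf gene (rows) covered by peaks in each of the 16 libraries (columns, H3K4me1 left and H3K4me2 right); the colour scale runs from 0 to 80%. Wnt2 and Wnt16 are coloured in all columns, Fgf7 and Fgf13 in none, and Wnt1, Wnt4, Wnt7b, Fgf15 and Fgf17 in the KO but not the wild-type EB columns of H3K4me2.

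Among Wnt genes, H3K4me1 marked 11 to 13 of 19 in ES lists and 5 to 10 in EB lists, and H3K4me2 marked 14 to 17 and 10 to 13. Among the 20 Fgf genes the counts were 3 to 9 and 4 to 7 for H3K4me1, and 10 to 13 and 8 to 12 for H3K4me2. The Fgf7 subfamily of epithelial ligands (Fgf3, Fgf7, Fgf10 and Fgf22) had 2 to 3 of 4 members with H3K4me2 in each list, the Fgf9 subfamily (Fgf9, Fgf16 and Fgf20) 3 of 3 in ES lists and 2 to 3 in EB lists, and the Fgf8 subfamily (Fgf8, Fgf17 and Fgf18) 1 of 3 in ES lists and 1 to 2 in EB lists. The intracellular Fgf11, Fgf12, Fgf13 and Fgf14, which act on sodium channels, had 1 to 2 of 4 marked at their ends. Over the gene span Fgf12, Fgf13 and Fgf14 were marked by H3K4me2 in all 8 lists, at starts that lie inside the longest RefSeq span. Of the hormone-like Fgf15 (bile acid feedback), Fgf21 (fasting) and Fgf23 (phosphate), 1 to 2 of 3 had H3K4me2 in each list.

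The CG content of the starts followed the H3K4me2 lists in members as in other genes. Over 300 bases (250 before and 50 after the start), the 15 member starts with H3K4me2 over them in all 8 lists held a median of 29 CG dinucleotides (range 10 to 47), the 14 starts with 1 to 7 lists held 25 (6 to 58), and the 9 starts with none held 6 (3 to 18). The corresponding medians over the starts of other genes were 22, 19 and 3. Starts of 1 gene are not independent, and these values are a description. Wnt16 with 10 CG and H3K4me2 in all 8 lists lay within the range of the unmarked starts. Wnt11 (a ligand of convergent extension), whose start at the end of the gene held 45 CG, had H3K4me2 over it in 1 list.

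**Figure D3:**
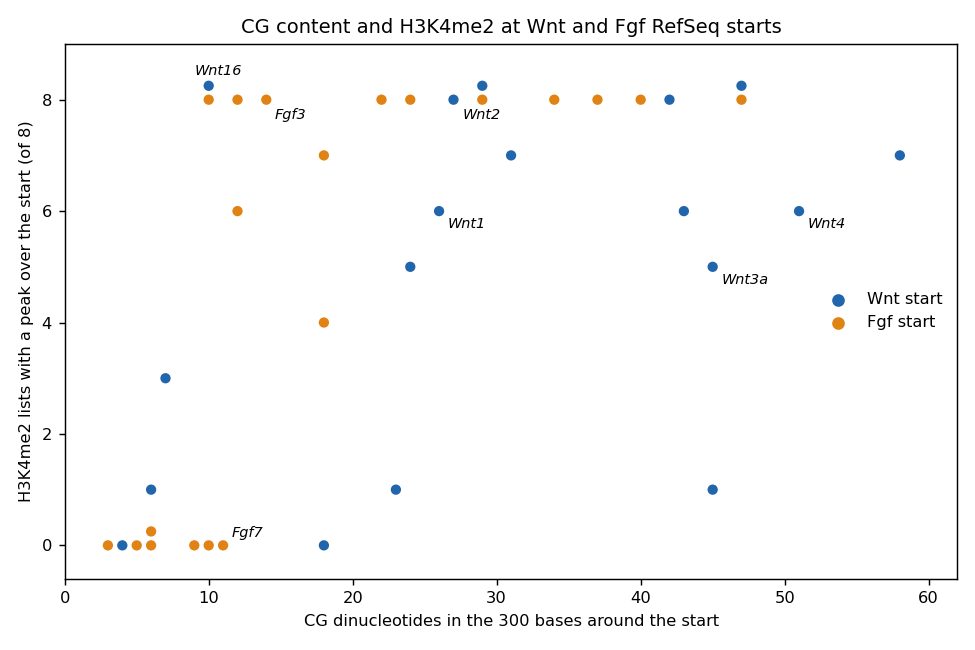
Number of H3K4me2 lists (of 8) with a peak over each of the 38 RefSeq starts of 29 Wnt (blue) and Fgf (orange) genes against the number of CG dinucleotides in the 300 bases around it; points that coincide are raised slightly. Starts with no H3K4me2 list hold 3 to 18 CG, and those with all 8 hold 10 to 47.

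The effect of Prdm16 loss was asked within each antibody and stage. KO-only here means a peak in each KO list and in no wild-type list, and wild-type-only means the reverse. With 2 libraries against 2 the smallest two-sided exact permutation p is 0.333, so these calls carry no test and are set beside the share of other genes that met the same rule. H3K4me2 in EB gave the most calls at the gene ends. Wnt1, Wnt4, Wnt7b, Fgf15 and Fgf17 were KO-only, 5 of 39 (12.8%), while 2.03% of other genes were KO-only, and 0 members were wild-type-only (1.64% of other genes).

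Wnt1, a ligand of the midbrain (chr15:98789857-98793830), had no H3K4me2 peak in its windows in either wild-type EB list and 4.51 and 5.03 kb covered in KO EB (mean 4.77 ± 0.371 kb, SD, n = 2). The nearest wild-type EB peaks lay 21.5 and 21.2 kb beyond the windows. Wnt4, needed for kidney and ovary development (chr4:137277635-137299501), had none in wild type and 3.67 and 3.99 kb in KO (3.83 ± 0.223 kb). The KO EB peaks of both genes covered their RefSeq starts, the sequences of which are printed above, as regions chr15:98788906-98793947 and chr4:137275554-137279716.

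Fgf15, the intestinal bile acid signal (chr7:144896532-144900953), had 5.5 and 5.73 kb covered in KO EB (5.62 ± 0.162 kb) and none in wild type. Wnt7b, a ligand of lung and brain vessel development (chr15:85535437-85581821), had 3.64 and 3.39 kb (3.52 ± 0.173 kb) and none in wild type. Fgf17, a ligand of the midbrain and cerebellum (chr14:70636203-70642268), had 3.16 and 4.99 kb (4.08 ± 1.29 kb) and none in wild type. That the genotypes separated in EB at each of the 5 genes follows from the rule that chose them. The window of Fgf17 also holds an end of Dmtn, and Wnt7b had a wild-type EB peak (replicate 2, chr15:85566164-85569121) inside its span and outside the windows.

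The same windows were read in ES cells. Wnt1 had 4.07 and 4.83 kb of H3K4me2 in wild-type ES and 5.07 and 5.57 kb in KO ES. Wnt4 had 3.76 and 4.5 kb against 4.5 and 5.07 kb. Fgf15 had 3.48 and 4.32 kb against 4.18 and 3.46 kb. These 3 genes thus had the mark in all 4 ES lists, lacked a called peak in wild-type EB and had one in KO EB. Among the members with H3K4me2 in all 4 ES lists they were 3 of 23 (13.0%), while 148 of 10351 other such genes (1.43%) had this pattern. The opposite pattern, with the peak in both wild-type and no KO EB lists, was met by 0 of 23 members and by 1.66% of other genes. Wnt7b was marked in ES cells in 1 wild-type and 1 KO list (4.53 and 0.968 kb, both replicate 2), and Fgf17 in none. This pattern was chosen after the values were seen.

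Rank by score set a limit to these calls. The KO EB peaks ranked at percentiles 52.5 and 58.3 of their lists at Fgf15, 38.5 and 46.1 at Wnt4, 20.2 and 49.0 at Wnt7b, 22.9 and 5.82 at Wnt1, and 7.62 and 4.1 at Fgf17, so that the peaks of Fgf17 and 1 of Wnt1 were close to the lowest scores kept. With the higher-scoring 50% of each list, Fgf15 alone of the 5 remained KO-only, and Fgf10 was added. With lists cut to equal length, 4 remained (all but Fgf17). Without the libraries of another series all 5 remained, but in EB that library is a wild-type one. Leaving it out cannot remove a KO-only call, so it does not check these calls.

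**Figure D4:**
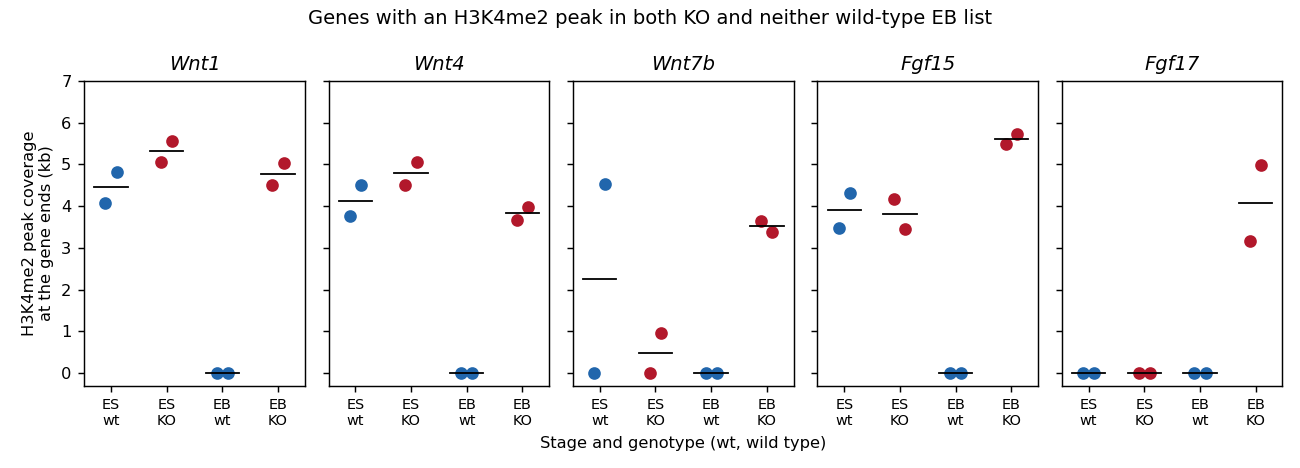
Length of the gene-end windows covered by H3K4me2 peaks (kb) for the 5 genes marked in each KO EB list and in no wild-type EB list; points are libraries (blue wild type, red KO) and lines are means of 2. Wild-type EB lie at 0 for all 5 genes and KO EB between 3.16 and 5.73 kb, and Wnt1, Wnt4 and Fgf15 also have the mark in all 4 ES libraries.

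Over the gene span in EB, H3K4me2 was KO-only at Wnt1, Wnt4, Fgf15 and Fgf17 (1.69% of other genes) and wild-type-only at Wnt5a (1.79%), a ligand of planar polarity. At the ends of Wnt5a the EB lists covered 1.01 and 1.17 kb in wild type and 0.567 and 0 kb in KO. H3K4me1 in EB was KO-only at 0 members (0.581% of other genes) and wild-type-only at 3 (7.69%, other genes 4.13%).

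The 3 were Wnt3a, Wnt2b and Fgf23. Wnt3a, which maintains the presomitic mesoderm, had 3.32 and 4.03 kb of H3K4me1 in wild-type EB (3.67 ± 0.499 kb) and none in KO, over its start at chr11:59288129-59292292. H3K4me2 at the same windows was present in all 4 EB lists, with 5 and 4.12 kb in wild type and 3.3 and 3.5 kb in KO, so the H3K4me2 groups did not overlap either. Wnt2b had 1.92 and 1.91 kb in wild type and none in KO, in a region (chr3:104939051-104944225) 17484 bp from its RefSeq start. Fgf23, the bone hormone of phosphate balance, had 2.34 and 2.12 kb against none, over its start (chr6:127072202-127074539). In KO EB the H3K4me1 lists were shorter, and with equal list lengths, or with the higher-scoring 50%, 0 of the 3 remained wild-type-only. Over the span the wild-type-only genes were Fgf1 and Fgf23 (4.83% of other genes), and 0 were KO-only (0.751%).

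In ES cells the genotypes differed at fewer members. Fgf21, the liver hormone of fasting (chr7:45613890-45615490), was KO-only for both marks. Its H3K4me1 coverage was 0 and 0 kb in wild type and 1.83 and 2.92 kb in KO (2.38 ± 0.777 kb), and its H3K4me2 coverage was 0 and 0 kb against 1.96 and 1.86 kb (1.91 ± 0.0764 kb). The windows of Fgf21 also hold an end of Fut1, and the H3K4me2 region (chr7:45616027-45618701) began 537 bp from the Fgf21 start, outside its span. Fgf1 was KO-only for H3K4me1, with 0.923 and 1.68 kb in KO and none in wild type. KO-only H3K4me1 was thus met by 2 of 39 (5.13%, other genes 1.3%) and KO-only H3K4me2 by 1 (2.56%, other genes 1.91%), and 0 members were wild-type-only for H3K4me1 (1.79% of other genes) or H3K4me2 (1.22%). Over the span, Fgf1 alone was KO-only for H3K4me1 (1.54%), 0 members were KO-only for H3K4me2 (2.01%), and 0 were wild-type-only for H3K4me1 (1.76%) or H3K4me2 (1.11%).

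The difference between stages was asked with both genotypes together, as peaks in all 4 lists of a stage and none of the other. H3K4me1 was ES-only at Wnt9b, Wnt10a and Fgf3 (7.69%, other genes 2.95%). Fgf3, a ligand of inner ear induction, had 2.54 and 2.54 kb in wild-type ES and 3.28 and 2.87 kb in KO ES, and 0 in all 4 EB lists, while its H3K4me2 was kept in EB (3.74 and 5.18 kb in wild type, 4.83 and 4.22 kb in KO). Wnt10a, a ligand of tooth and skin, had 2.82 and 3.01 kb and 2.89 and 3.64 kb in ES and 0 in EB. Wnt9b, an inducer of kidney tubules, had 1.98 and 2.17 kb and 2.07 and 2.65 kb in ES and 0 in EB, but the windows of Wnt9b hold an end of Wnt3, and the peak lies there. The H3K4me1 lists of EB were shorter (5990 to 14082 peaks, against 12746 to 15435 in ES cells). With equal list lengths, or with the higher-scoring 50% of peaks, Wnt9b alone of the 3 remained ES-only. H3K4me1 over the span was ES-only at 6 members, which added Wnt2b, Wnt5a and Wnt11 (15.4%, other genes 3.19%).

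H3K4me1 was EB-only at Fgf6 and Fgf9 (5.13%, other genes 0.604%), and both calls rested on the edge of a window. Fgf6 had 1.12 and 1.36 kb in wild-type EB and 1.32 and 1.24 kb in KO EB. In the ES lists a peak inside the gene came within 0.726 and 0.859 kb of its windows in wild type and 0.283 and 0.065 kb in KO. Fgf9, a ligand of lung and testis development, had 0.695 and 0.08 kb in wild-type EB and 0.203 and 0.307 kb in KO EB, and 0 in ES lists. No member was EB-only over the span (0.819% of other genes).

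H3K4me2 was ES-only at Wnt6 (2.56%, other genes 1.92%), with 2.24 and 2.07 kb in wild-type ES, 2.35 and 2.75 kb in KO ES and 0 in all 4 EB lists. That peak lies 8086 bp from the RefSeq start of Wnt6. The start itself had H3K4me2 in all 4 ES lists and in 3 of 4 EB lists. Over the span, Wnt11 and Fgf1 were ES-only (2.13% of other genes). EB-only H3K4me2 was met by 0 members at the ends (1.61% of other genes) and 0 over the span (1.25%). Of the 23 members with H3K4me2 in all 4 ES lists, 12 (52.2%) had it in all 4 EB lists, 10 (43.5%) in 1 to 3 and 1 (4.35%) in none. The shares of 10351 other genes were 79.1%, 16.9% and 4.05%, so H3K4me2 at these members was more often called in some and not all EB lists, without a test of that difference. H3K4me1 went the other way. Of 10 members with H3K4me1 in all 4 ES lists, 3 (30.0%) had it in all 4 EB lists, 4 (40.0%) in 1 to 3 and 3 (30.0%) in none. The shares of 1799 other genes were 11.1%, 53.0% and 35.9%, also without a test.

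Tests over libraries were possible when the sets were joined. For each gene, the covered percentage of its gene-end windows was compared between stages within antibody and genotype, and between genotypes within antibody and stage, by two-sided exact permutation tests over 1296 assignments, whose smallest p is 0.00154. P-values were adjusted by Benjamini-Hochberg over the 15927 genes with a peak, which include 37 of the 39 members (not Fgf7 and Fgf13). At an adjusted p of 0.05, 0 genes (0%) passed either test. The smallest adjusted p was 0.0672 for the stage and 0.805 for the genotype. At an unadjusted exact p of 0.05 the stage test called 2572 genes (16.1%) and 7 of 37 members. Of these, 6 were lower in EB (12.3% of all genes) and 1 higher (3.84%). The 6 include Wnt3 and Wnt9b, which share a gene-end peak. The median difference, EB minus ES, was -3.38 percentage points over the members and -1.03 over all genes tested.

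Wnt1 had the lowest stage p among the members. Its coverage averaged 16.2% in 8 EB lists and 49.5% in 8 ES lists, a difference of -33.35 points (SD 18.9 over the 4 sets of antibody and genotype, lower in EB in 4 of 4; exact permutation p = 0.00154, adjusted p = 0.0672). In H3K4me1 its windows were covered by 3.57 and 3.8 kb in wild-type ES, 4.85 and 3.79 kb in KO ES, 0 and 0 kb in wild-type EB and 2.06 and 0 kb in KO EB. Wnt3, the ligand that initiates the primitive streak, averaged 8.9% in EB and 39.2% in ES, lower in 4 of 4 sets (exact permutation p = 0.00617, adjusted p = 0.117). Wnt3 H3K4me1 was 3.07 and 3.27 kb in wild-type ES and 3.17 and 3.74 kb in KO ES, against 0 and 1.42 kb and 0.699 and 0 kb in EB. The other 4 with lower EB coverage at an unadjusted p of 0.05 were Wnt9b, Wnt4, Fgf3 and Fgf22 (a synapse-organising Fgf), with adjusted p of 0.202 to 0.231 in the same exact permutation test, and Fgf10 was higher in EB by 3.24 points (adjusted p = 0.202). Wnt9b and Wnt3 share the peak over the Wnt3 start (H3K4me2 in ES cells, chr11:103770295-103775357), so their differences are not independent. The RefSeq start of Wnt9b itself had H3K4me2 in all 8 lists. Fgf22 H3K4me2 was 3.1 and 3.33 kb in wild-type and 0 and 5.34 kb in KO ES, against 0 and 2.15 kb in wild-type and 0 and 0 kb in KO EB, so the stages overlapped. Fgf10 H3K4me2 was 4.29 and 4.11 kb in wild-type and 4.38 and 4.52 kb in KO ES, against 4.83 and 4.92 kb and 4.63 and 4.57 kb in EB, where all 4 values were higher.

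EB lists were also shorter than ES lists, and the stage differences were smaller with equal list lengths. Wnt1 then differed by -20.62 points (exact permutation p = 0.116) and Fgf3 by -0.58 points (exact permutation p = 0.986). Wnt3 differed by -25.04 points (exact permutation p = 0.00617) and Wnt9b, which shares the Wnt3 peak, by -17.12 points (exact permutation p = 0.0278). Wnt4 differed by -8.73 points, Fgf22 by -13.16 points and Fgf10 by 2.07 points, with exact permutation p of 0.278, 0.167 and 0.0556. Over the gene span, members passed the adjusted threshold (Wnt1, Wnt2b, Wnt9b and Wnt11 lower in EB, Fgf6 higher), 5 of 39, beside 1618 of 16160 genes tested (10.0%). In windows of 10000 bp 4 of 39 passed (the same without Wnt2b), beside 1706 of 17291 genes (9.87%), so both shares lay near those of all genes. The member counts are out of all 39, although Fgf8, with no peak over its span, was not tested over the span. Over the span of Wnt11, H3K4me2 covered 6.54 and 1.59 kb in wild-type ES, 2.93 and 2.33 kb in KO ES and 0 in all 4 EB lists (both marks together -18.96 points, exact permutation p = 0.00154, adjusted p = 0.0273).

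The genotype test called 614 genes (3.86%) and 3 of 37 members at an unadjusted exact p of 0.05. The median difference, KO minus wild type, was -0.11 points over the members and -1.1 over all genes tested. Wnt3a averaged 13.7% in 8 KO lists and 34.7% in 8 wild-type lists, a difference of -21.01 points (SD 12.1, lower in KO in 4 of 4 sets; exact permutation p = 0.00463, adjusted p = 0.805). Its H3K4me1 in ES cells was 0 and 2.35 kb in wild type and 0 and 0.082 kb in KO, and its H3K4me2 there was 6.81 and 2.17 kb against 2.04 and 2.05 kb. The Wnt3a difference was -11.83 points with equal list lengths (exact permutation p = 0.0278) and -7.86 points with the higher-scoring 50% of peaks (exact permutation p = 0.417). Wnt1 averaged 43.0% in KO and 22.7% in wild type, higher in KO by 20.37 points in 4 of 4 sets (exact permutation p = 0.00926, adjusted p = 0.805). Restricted to the top 50% of each list by score, the Wnt1 difference was -0.68 points (exact permutation p = 0.972). At Fgf21 the mean difference was 14.15 points (SD 22.5, higher in KO in 3 of 4 sets, exact permutation p = 0.0417, adjusted p = 0.805). In H3K4me2 of EB it went the other way, with 0% in KO and 13.0% in wild type. None of the 3 passed the adjustment, so a genotype difference over both marks was not shown for these genes.

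**Figure D5:**
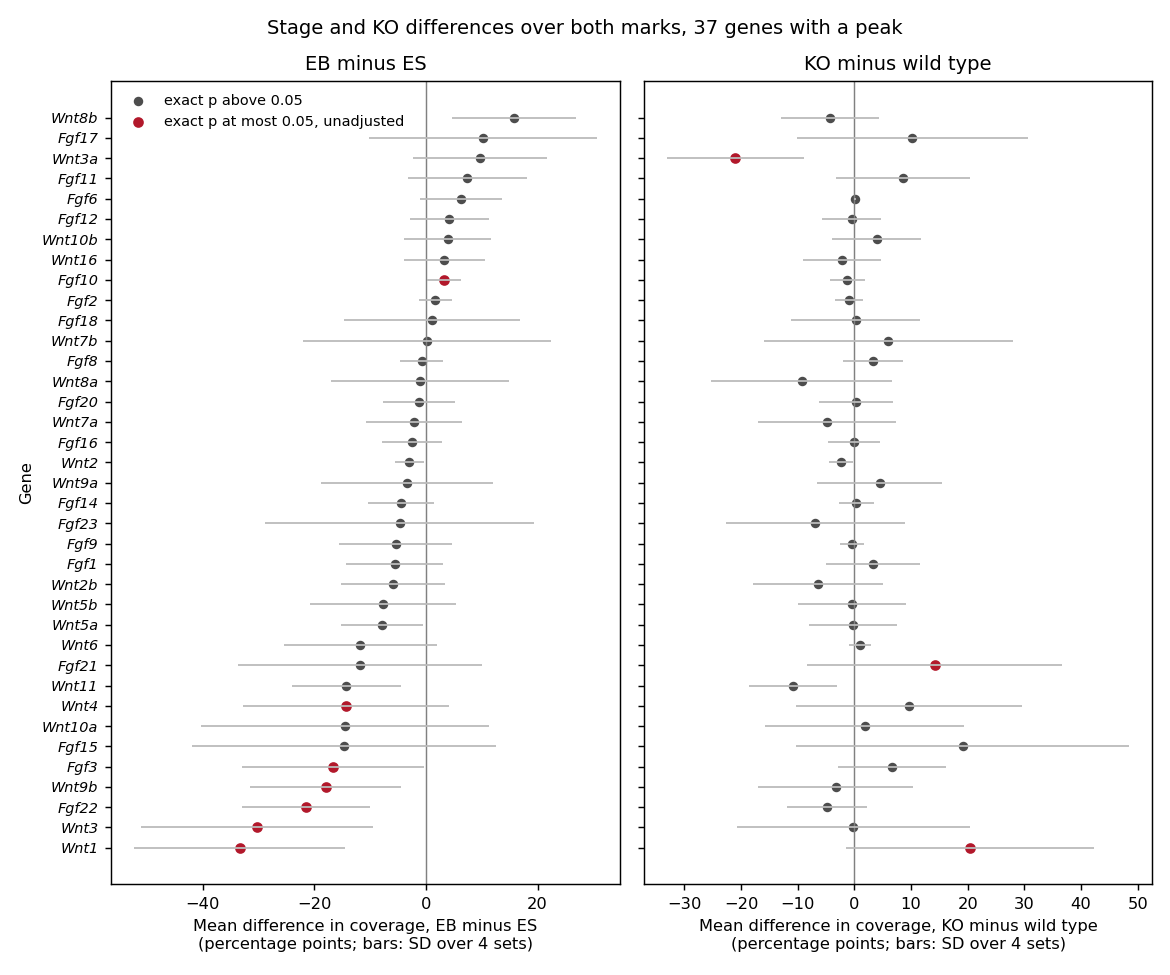
Mean difference in covered percentage of the gene-end windows, EB minus ES (left) and KO minus wild type (right), for the 37 Wnt and Fgf genes with a peak; points are means over the 4 sets of libraries, bars are SD over these sets, and red points have an unadjusted exact p of at most 0.05. Wnt1 lies lowest at the left (-33.35) and highest at the right (20.37), and Wnt3a lowest at the right (-21.01).

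Other genes of these pathways were taken from fixed lists and read by the same rules. Of 11 feedback targets of Wnt signalling, H3K4me2 in EB was KO-only at Sp5, a transcription factor induced by beta-catenin (2.03% of other genes), and wild-type-only at Cdx1, a caudal homeobox gene (1.64%). Sp5 had 5.79 and 5.24 kb in wild-type ES, 5.74 and 5.54 kb in KO ES, 0 and 0 kb in wild-type EB and 5.39 and 5.98 kb in KO EB, the order seen at Wnt1, Wnt4 and Fgf15. Cdx1 had 2.52 and 3.39 kb in wild-type EB and none in KO. Axin2, the negative feedback gene of the pathway, was ES-only for H3K4me2 (1.92% of other genes), with 2.57 and 3.34 kb in wild-type and 3.16 and 2.68 kb in KO ES.

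Of 18 genes for Wnt secretion and signal transduction, Tcf7l1 was KO-only for H3K4me2 in EB (4 and 4.29 kb, none in wild type) and, with Ctnnb1, in ES cells (1.91% of other genes). Of 15 genes of Fgf signal transduction and feedback, Spred1, an inhibitor of Ras and Erk signalling, was KO-only for H3K4me2 in EB (1.91 and 1.8 kb, none in wild type), while H3K4me1 there was wild-type-only at Spred1, Frs2 and Spry2 (4.13% of other genes). Wild-type-only H3K4me1 in EB was also found at the receptors Fzd1 and Fzd4 and at Dvl3 and Bcl9 of signal transduction. At Dvl3 the wild-type replicate 2 peak covered 0.141 kb. KO EB had the shorter H3K4me1 lists, and these calls at pathway genes were not repeated with equal list lengths. In ES cells the early response gene Egr1 was wild-type-only for H3K4me1 (1.79% of other genes) and H3K4me2 (1.22%), and Fgfr3, an Fgf receptor, for H3K4me2. H3K4me1 in ES cells was also wild-type-only at Fzd7 and Csnk1a1 and KO-only at Lgr6, Dkk1, Dvl2 and Ptpn11 (1.3% of other genes). Of 18 Wnt receptors and co-receptors and 7 Fgf receptors and co-receptors, 0 had KO-only or wild-type-only H3K4me2 in EB. Of 14 secreted Wnt inhibitors, Sfrp2, Sfrp4, Sfrp5 and Frzb were ES-only for H3K4me1 (2.95% of other genes), as were the receptors Fzd10, Ror1 and Fgfr3, and 0 of the 14 had a genotype call for H3K4me2. Fzd2 was ES-only for H3K4me2, and Dusp6, a phosphatase that limits Erk, was EB-only for H3K4me1 (0.604% of other genes). EB lists of both marks were shorter, and the ES-only calls at pathway genes were not repeated with equal list lengths. H3K4me2 was called at Sfrp2, Sfrp4, Sfrp5 and Frzb in all 4 EB lists. In the exact permutation tests 0 genes of these 6 lists passed the adjustment. The stage test called 4 of 7 Fgf receptors and co-receptors (Fgfr2, Fgfr3, Fgfr4 and Klb), all lower in EB. EB lists were shorter, and the test was not repeated for these receptors with equal list lengths. The level was an unadjusted p of 0.05, met by 16.1% of all genes in the stage test (12.3% lower and 3.84% higher in EB) and 3.86% in the genotype test. The stage test also gave Fzd4, Sostdc1 and Frs2 as higher and Fzd9, Sfrp2, Sfrp4, Axin2, Cdx4, Sp5, Etv5, Ptpn11 and Spred1 as lower in EB at that level, and the genotype test gave Fzd1 and Egr1 as lower and Sfrp4 as higher in KO.

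The PRDM16 lists were short, and few genes of any kind had a peak. In the 8 PRDM16 lists, of 146 to 586 peaks, 0 members had a peak at a gene end, and 0.233 to 0.851% of other genes had one. Over the span Wnt10a had a peak in 1 KO ES list (chr1:74796118-74796549) and Wnt5b in 1 wild-type EB list (chr6:119479752-119481083), each in 1 of 8 lists and, for Wnt10a, in cells labelled as lacking PRDM16.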

How the data were processed

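The authors deposited 1 peak list per library, with positions, a MACS-style peak name and a score for each peak. The unit of the score was not given in the sources used here; it was at least 50 and was used for ranks within a list alone. The submitters' processing notes name the build (mm10) and, without their roles, HOMER 4.10, deepTools, MACS2, bedtools, SAMtools 1.5 and Bowtie2. Control libraries and depth scaling: not given in the sources used here.

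The 19 autosomes, X and Y were analysed. Gene ends came from a RefSeq table of GRCm38.p6 without strand or exons, so exon, intron and UTR were not resolved. Overlaps, covered lengths and exact permutation tests were computed in Python 3.11.15 with pandas 2.3.3 and NumPy 2.4.6, tested on simulated data and checked against bedtools 2.31.1. Figures used matplotlib 3.10.9. The members, gene lists and tests were chosen with earlier results of these data known. Values by library are given for members called at the gene ends between genotypes or stages; the other named members describe classes or counts. Libraries of the same replicate number did not deviate together (correlations over genes of -0.046 to 0.033), so they were not paired. Alternatives were windows of 1000 and 10000 bp, the gene span, the higher-scoring 50% of peaks, equal list lengths, 500 bp of overlap, each library left out, the library series, a replicate block and, added after seeing the data, windows around RefSeq starts.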

Additional observations from a re-analysis of the deposited data

Results flagged for a closer look

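At 4 members the KO minus wild-type difference in peak coverage had opposite signs in ES cells and EB, with no overlap of the genotypes at either stage. The difference between stages was not tested. The KO minus wild-type difference at Wnt16 H3K4me1 was 2.8 points of window coverage in ES cells and -8.5 in EB, so that EB minus ES was -11.3. Wnt16 H3K4me2 gave 4.6 and -7.9 points (EB minus ES -12.5), Fgf10 H3K4me2 2.5 and -2.7 (-5.2), Fgf18 H3K4me2 14.2 and -8.2 (-22.4), and Fgf20 H3K4me2 6.3 and -7.3 (-13.5). Such genes were 1 of 39 members (2.56%) for H3K4me1, with 0.696% of other genes, and 4 of 39 (10.3%) for H3K4me2, with 12.9% of other genes, so the H3K4me2 pattern was no more frequent among the members. H3K4me2 peaks covered 59.2 and 65.5 Mb in wild-type and 78.3 and 81.0 Mb in KO ES lists, against 47.7 and 62.6 Mb in wild-type and 39.1 and 39.2 Mb in KO EB lists; the part of this in the differences was not tested.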

How the results depend on the processing

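Of the 10 single-gene differences with an unadjusted exact p of 0.05 or less, 3 changed sign under an alternative. KO minus wild type at Wnt1 was -0.68 points with the higher-scoring 50% of peaks. EB minus ES at Fgf10 was -10.12 points with these peaks and -2.55 with 10000 bp, and at Wnt9b 16.14 around RefSeq starts. Counts of called members have no direction. Their moves are given here or with the results, and the cause was not tested unless given. With 10000 bp, Wnt7b was no longer KO-only for H3K4me2 in EB, and Wnt9b no longer ES-only for H3K4me1. Wnt8b was added as KO-only for H3K4me1 in ES, and Wnt11 replaced Wnt6 as ES-only for H3K4me2. Wnt3 was added as ES-only for H3K4me1 with 1000 bp and around RefSeq starts. Without the libraries of another series, Wnt8b was added as KO-only for H3K4me2 in EB. With the higher-scoring 50% of peaks, H3K4me1 wild-type-only members numbered 1 in ES and 0 in EB, KO-only 1 in ES, ES-only 1 and EB-only 1. For H3K4me2 they numbered 0 KO-only in ES, 1 wild-type-only and 2 KO-only in EB, and 5 ES-only. With equal list lengths, H3K4me1 gave 1 wild-type-only in ES, 0 wild-type-only and 1 KO-only in EB, 1 ES-only and 1 EB-only, and H3K4me2 gave 1 EB-only. Over the gene span, H3K4me1 gave 1 KO-only in ES, 6 ES-only and 0 EB-only, and H3K4me2 0 KO-only in ES, 1 wild-type-only in EB and 2 ES-only. H3K4me1 EB-only members numbered 0 with 1000 bp, 0 with 10000 bp and 1 with 500 bp of overlap, and H3K4me2 wild-type-only in EB was 1 with 10000 bp. Around RefSeq starts, chosen after seeing the data, H3K4me1 gave 1 KO-only in ES and 1 EB-only, and H3K4me2 gave 2 KO-only in EB (Wnt7b, Fgf15 and Fgf17 are not in that table) and 0 ES-only. Without the libraries of another series, H3K4me2 wild-type-only was 1 in ES (Fgf22) and 2 in EB (Wnt3 and Wnt9b, by the same peak). The stage test passed 4 members with 10000 bp and 5 over the span. With the replicate block the stage test passed 0 (5 unadjusted) and the genotype test 0 (2 unadjusted), over 256 assignments, with 1662 and 283 of 15927 genes at an unadjusted p of 0.05. Leaving out each library, the H3K4me1 ranges were 0 to 2 wild-type-only and 3 to 4 KO-only in ES, 3 to 6 and 0 to 6 in EB, 3 to 5 ES-only and 2 to 2 EB-only. For H3K4me2 they were 0 to 3 and 1 to 3 in ES, 1 to 2 and 5 to 6 in EB, 1 to 3 ES-only and 0 to 1 EB-only, and 0 to 0 members passed either test. Counts moved without these libraries. For H3K4me1 in EB, KO-only was 6 without KO replicate 2 and 1 without wild-type replicate 2, and wild-type-only 6 and 5 without wild-type replicates 1 and 2. For H3K4me1 in ES, KO-only was 4 without either wild-type library or KO replicate 1, and wild-type-only 1 without wild-type replicate 1 and 2 without KO replicate 1; ES-only was 5 without KO EB replicate 1. For H3K4me2 in EB, wild-type-only was 2 without either wild-type and 1 without either KO library. For H3K4me2 in ES, KO-only was 3 without wild-type replicate 1, and wild-type-only 3 without wild-type replicate 2 and 1 without KO replicate 2. EB-only was 1 without wild-type ES replicate 1, and ES-only 2 and 3 without wild-type ES replicate 2 and wild-type EB replicate 1. A rule over fewer lists is easier to meet. Read depth is unknown.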
